A study of Mus musculus with 18 samples.

Results

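Contact frequencies measured by chromosome conformation capture carbon copy (5C) across the mouse HoxD locus were compared between OS25 embryonic stem cells (ESCs) after 3 days of differentiation (D3) and undifferentiated OS25 cells (UD). The comparison took in 4 of the 18 libraries of the study, 2 per group, and all 4422 pairs of 1 forward and 1 reverse primer among the EcoRI fragments of the ESC design, 66 with a forward and 67 with a reverse primer. OS25 is a mouse ESC line that can be differentiated in culture. For D3, cells had been plated at low density without LIF or hygromycin for 1 day, after which retinoic acid (RA) was present at 5 µM for 2 days. Per the labels, ESCs had been kept with LIF on mitomycin C-treated embryonic fibroblasts. The study's methods give such fibroblasts for wild-type, Ring1B-null and Eed-mutant ESCs, and refer to earlier work for the culture of OS25. Labels of both groups hold the same text on differentiation, and a library was placed in its group by its title. Both groups are of the same line, and nothing in 5C reads checks the cell state their labels name. Low density, the absence of LIF and of hygromycin, and RA come together in D3, so their parts cannot be told apart. No differentiated culture without RA was part of the comparison. The frequencies average over all cells of a culture.

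In 5C, crosslinked chromatin is cut and religated, and pairs of primers that meet at a ligation junction are joined and sequenced, so that a frequency reports how often 2 fragments were ligated and not a distance. HoxD is one of the mammalian Hox clusters, in which genes lie in the order of their expression along the body axis. Genes toward the 3′ end, such as Hoxd1, respond first to RA, and Hoxd13 at the 5′ end is expressed late and in posterior and distal structures. In ESCs the cluster is covered by Polycomb complexes and is compact. On its 5′ side Evx2, a homeobox gene, is followed by Lnp (Lunapark, an endoplasmic reticulum protein), with a gene desert beyond it. On its 3′ side a desert stretches past Mtx2 (metaxin 2, a protein of mitochondrial import). Both deserts hold long-range enhancers of Hoxd genes in the limb.

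The fragments ran over 666 kb of chr2 (74241352 to 74907778, mm9), with a median length of 2393 bp. Evx2 to Hoxd1 (74491049 to 74603200, 112 kb) is called the cluster here and holds 23 fragments, with 40 on the 5′ flank and 70 on the 3′ flank. Transcription starts of Evx2, Hoxd13, Hoxd12, Hoxd11, Hoxd8, Hoxd3, Hoxd4 and Hoxd1 lay on a fragment of the design, and those of Lnp, Hoxd10, Hoxd9 and Mtx2 did not. Of the pairs, 4251 had midpoints at least 10 kb apart. Values are reads of a contact per 1000 reads of the run, and log2 changes (D3 over UD) were taken after adding 0.02. As shares of a run, they are tied to each other, and reads missing from one region appear elsewhere.

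The 5C primers of this design anneal beside the EcoRI sites, and the finding on contact direction given later rests on 3 fragments within the cluster. The ends of these fragments are shown as the junctions that ligation uses. Each is the last stretch of its fragment on the plus strand of mm9 through the EcoRI site (in capitals) at its 3′ end, from the reference genome.
mHoxD_81, stretch in no protein-coding gene, chr2:74548229-74548288: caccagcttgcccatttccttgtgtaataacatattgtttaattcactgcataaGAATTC
mHoxD_89, stretch in a Hoxd3 exon outside the coding part, chr2:74574550-74574609: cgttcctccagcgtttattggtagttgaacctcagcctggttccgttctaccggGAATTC
mHoxD_92, stretch in no protein-coding gene, chr2:74591703-74591762: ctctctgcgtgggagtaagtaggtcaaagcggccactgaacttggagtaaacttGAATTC
At its other end mHoxD_81 overlaps a coding exon of Hoxd8, and mHoxD_92 an exon of Hoxd3 outside the coding part. The annotated span of Hoxd3 used here reaches over Hoxd4, and mHoxD_89 and mHoxD_92 lie between Hoxd4 and Hoxd1.

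D3 libraries held 608016 and 795847 reads and UD libraries 835487 and 909923. Pairs under 10 kb apart took 26.5% and 37.4% of the signal in D3 libraries 1 and 2 and 30.0% and 37.4% in UD libraries 1 and 2. Pairs at least 10 kb apart without a read numbered 1541 (36.3%) and 2023 (47.6%) in D3, against 1831 (43.1%) and 2099 (49.4%) in UD. Replicate libraries differed well beyond sampling noise, and the chi-square of their reads per degree of freedom was 87.8 for D3 and 119 for UD. Across the 4251 pairs, log2 values of D3 library 1 correlated with those of D3 library 2 at a Pearson r of 0.52 and with those of UD library 1 at 0.52, and UD library 2 correlated with D3 library 2 at 0.51 and with UD library 1 at 0.48. Libraries of the same number were thus about as alike over single pairs as replicates of a group, and the remaining pairs of libraries correlated at 0.47 and 0.46. Pairs are not independent replicates, and whether a shared preparation lies behind this was not tested. The same pair was strongest in all 4 libraries. It joined the Hoxd4 fragment mHoxD_85 to mHoxD_163, 287 kb away in the 3′ flank, at 77.0 and 29.4 reads per 1000 in D3 and 74.5 and 21.5 in UD.

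Contacts inside the cluster fell at D3. Their mean frequency over 105 pairs was 0.649 and 0.717 reads per 1000 in D3 (0.683 ± 0.0477, SD, n = 2), against 1.08 and 1.75 in UD (1.42 ± 0.474, n = 2). Both D3 libraries lay below both UD libraries, and the spread was wider in UD. The log2 change was -0.99 (SE 0.29, 95% interval -1.61 to -0.38, limma adjusted p = 0.047). Among all 41 readouts by region and distance, 3 (7.32%) were called lower and 0 (0%) higher, and all 3 lay inside the cluster. At an unadjusted p of 0.05, 6 readouts passed, 1 of them higher in D3. D3 libraries lay above both UD libraries in 8 readouts (19.5%) and below in 11 (26.8%). The call over the whole cluster was kept without UD library 1 (-1.33, limma adjusted p = 0.019) and lost without any other library, with the smallest change, -0.65, and an adjusted p of 0.809 without UD library 2. It was also lost with pseudocounts of 0.005 (0.067) and 0.1 (0.080) and with the readout's own spread (0.245). The lone library left in a group was then assumed to vary like the other groups.

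The change was more negative at longer distances within the cluster. At 10 to 20 kb, frequencies were 1.14 and 1.34 in D3, against 1.51 and 2.40 in UD (log2 change -0.62, limma adjusted p = 0.259), and at 20 to 40 kb 0.569 and 0.744 in D3, against 0.984 and 1.76 in UD (-0.99, limma adjusted p = 0.076). At 40 to 80 kb they were 0.580 and 0.487 in D3, against 0.986 and 1.47 in UD (-1.15, SE 0.30, limma adjusted p = 0.024). At 80 to 160 kb, the 10 pairs that join the ends of the cluster averaged 0.391 and 0.519 in D3, against 1.10 and 1.81 in UD (-1.60, SE 0.35, limma adjusted p = 0.0094). D3 lay below UD in each of the 4 classes, and the 2 longest passed the threshold. The call at 80 to 160 kb was lost without D3 library 1 or UD library 2, and that at 40 to 80 kb without any library other than UD library 1 or with a pseudocount of 0.1 (0.051). Both were lost with the readout's own spread (0.245). Whether the change differs between distances was not tested.

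**Figure D1:**
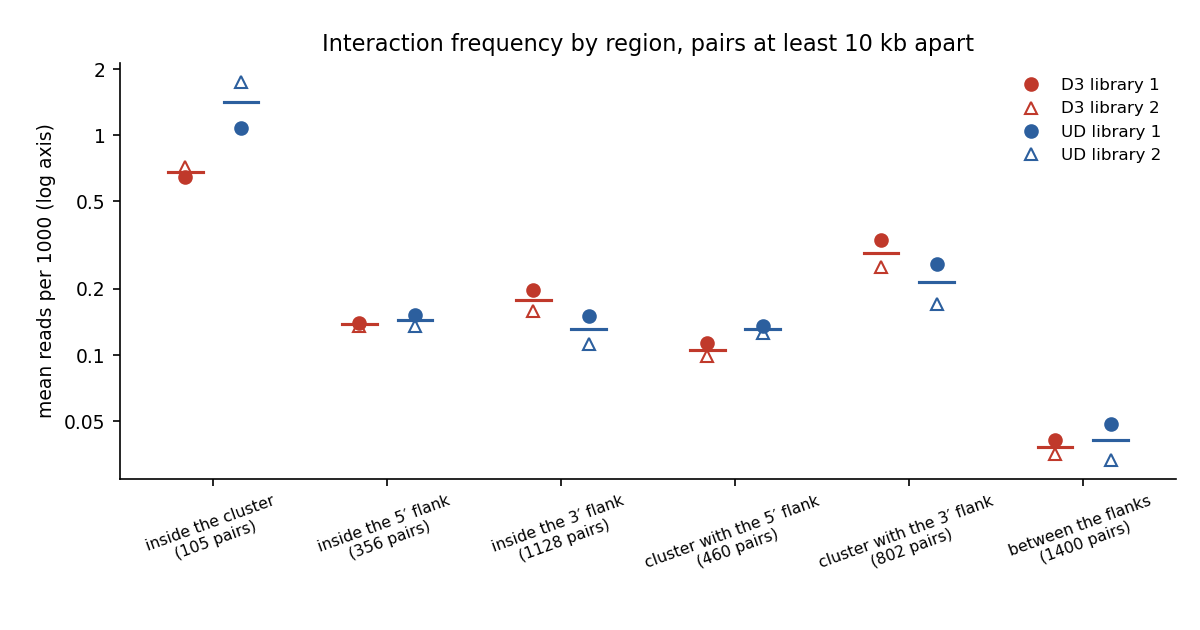
Mean contact frequency (reads per 1000, log scale) of pairs at least 10 kb apart, by region, in each D3 and UD library (points), with the mean of each group as a bar. Inside the cluster both D3 libraries (0.649 and 0.717) sit below both UD libraries (1.08 and 1.75), and inside the 3′ flank both D3 libraries (0.197 and 0.158) sit above both UD libraries (0.151 and 0.113).

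The distance decay inside the cluster was therefore steeper at D3. The slope of log10 mean frequency on log10 distance, fitted through the means of 4 distance classes, was -0.54 and -0.56 in D3, against -0.17 and -0.19 in UD. This measure was chosen for the cluster after its values were seen and is given with no test. In UD the mean at 80 to 160 kb was no lower than that at 40 to 80 kb, whereas 1 of the 2 D3 libraries declined at this step. Inside the flanks the slope was -0.43 and -0.57 in D3 and -0.49 and -0.59 in UD, and the groups overlapped. From 20 kb on, the cluster slope, through 3 class means, was -0.33 and -0.34 in D3, against 0.0976 and 0.0137 in UD. In this setting the slope inside the 3′ flank was also lower in both D3 libraries, at -0.41 and -0.47, against -0.39 and -0.36 in UD.

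**Figure D2:**
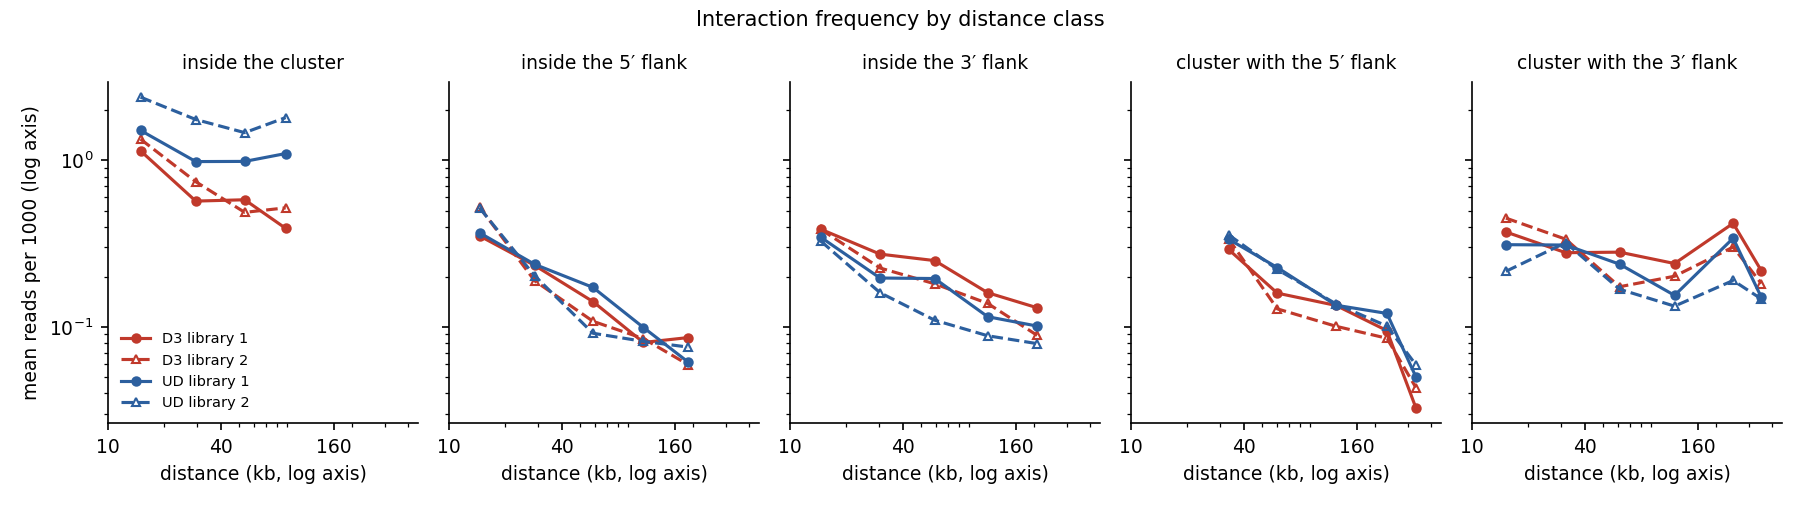
Mean contact frequency (reads per 1000) against distance (kb), both on log axes, 1 line per library, for pairs inside the cluster, inside each flank and of the cluster with each flank. The D3 lines in the cluster have slopes of -0.54 and -0.56 and the UD lines of -0.17 and -0.19, while the groups overlap in slope inside the flanks.

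Outside the cluster no region was called. Inside the 5′ flank frequencies were 0.140 and 0.136 in D3 and 0.152 and 0.135 in UD (log2 change -0.05, 95% interval -0.47 to 0.38, limma adjusted p = 0.917), the groups overlapped, and the change was 0.10 with size factors. Inside the 3′ flank they were 0.197 and 0.158 in D3, against 0.151 and 0.113 in UD. Both D3 libraries were above both UD libraries, with a log2 change of 0.39 (95% interval -0.09 to 0.86, limma adjusted p = 0.344). By distance, changes inside the 3′ flank were 0.19 at 10 to 20 kb, 0.44 at 20 to 40 kb, 0.48 at 40 to 80 kb, 0.48 at 80 to 160 kb and 0.22 at 160 to 320 kb, none called, and the groups overlapped at 40 to 80 and at 160 to 320 kb. The class at 40 to 80 kb holds the pair of mHoxD_127 with mHoxD_139, at 6.99 and 3.00 in D3 and 6.97 and 2.58 in UD. The 5′ flank showed changes between -0.10 and 0.06 in its 5 classes.

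Contacts of the cluster with its sides differed in sign. With the 3′ flank they were 0.334 and 0.251 in D3 and 0.261 and 0.171 in UD (log2 change 0.42, 95% interval -0.12 to 0.95, limma adjusted p = 0.344), with an overlap of D3 library 2 and UD library 1. This mean holds the pair of mHoxD_85 with mHoxD_163, at 77.0 and 29.4 in D3 and 74.5 and 21.5 in UD. Contacts with the 5′ flank were 0.113 and 0.0987 in D3, against 0.136 and 0.125 in UD (-0.26, 95% interval -0.76 to 0.23, limma adjusted p = 0.606), with both D3 libraries lower. On the 3′ side, groups did not overlap at 10 to 20 kb, with 0.371 and 0.450 in D3 against 0.312 and 0.216 in UD (0.62, limma adjusted p = 0.259, and 0.0494 with size factors), nor at 80 to 160 kb, with 0.240 and 0.201 in D3 against 0.155 and 0.133 in UD (0.55, limma adjusted p = 0.259). Nor did they over 320 kb, with 0.217 and 0.182 in D3 against 0.150 and 0.147 in UD (0.38, limma adjusted p = 0.376). The groups overlapped at 20 to 40 kb (-0.04), 40 to 80 kb (0.13) and 160 to 320 kb (0.45). On the 5′ side they were furthest apart at 40 to 80 kb, with 0.159 and 0.128 in D3 against 0.227 and 0.221 in UD (-0.58, limma adjusted p = 0.259, and -0.93 with 0.048 when fragments were assigned by their midpoints). None of these was called as tested. Frequencies of the cluster with the 3′ flank were higher again at 160 to 320 kb than at 80 to 160 kb in all 4 libraries, at 0.419 and 0.302 in D3 and 0.341 and 0.190 in UD, a class that holds the pair of mHoxD_85 with mHoxD_163. Pairs that join the flanks across the cluster averaged 0.0410 and 0.0355 in D3 and 0.0486 and 0.0333 in UD, and overlapped (-0.06, and 0.05 with size factors).

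Ratios within a library do not depend on its scaling. The mean frequency of the cluster with the 3′ flank over that with the 5′ flank was 2.95 and 2.55 in D3, against 1.92 and 1.37 in UD. It was still higher in D3, at 2.36 and 2.34 against 1.45 and 1.25 in UD, when the strongest 1% of pairs was left out. The ratio of the inside of the 3′ flank to the inside of the 5′ flank was 1.41 and 1.16 in D3, against 0.990 and 0.835 in UD. The inside of the cluster over the inside of the 5′ flank gave 4.64 and 5.26 in D3, against 7.10 and 13.0 in UD. The ratios were formed after values had been seen and carry no test, and D3 and UD did not overlap in any of the 3.

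As a share of all reads at least 10 kb apart, contacts inside the cluster made up 9.51% and 12.6% in D3 (11.0% ± 2.16, SD, n = 2), against 16.8% and 30.6% in UD (23.7% ± 9.79, n = 2), from 2.47% of the pairs. Contacts inside the 3′ flank took 31.0% and 29.8% in D3, against 25.1% and 21.2% in UD, and contacts of the cluster with the 3′ flank 37.3% and 33.7% in D3, against 30.9% and 22.9% in UD. Contacts of the cluster with the 5′ flank took 7.26% and 7.58% in D3, against 9.24% and 9.61% in UD. Of these reads, smaller shares thus lay inside the cluster and between it and the 5′ flank in both D3 libraries, and larger shares inside the 3′ flank and between it and the cluster. Over all pairs, those under 10 kb included, the share of the cluster with the 3′ flank overlapped, at 28.0% and 21.8% in D3 and 22.3% and 14.9% in UD.

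Pooled over the locus, no distance class was called. Log2 changes were -0.16 at 10 to 20 kb, -0.28 at 20 to 40 kb, -0.20 at 40 to 80 kb, 0.19 at 80 to 160 kb, 0.26 at 160 to 320 kb and 0.07 beyond 320 kb (limma adjusted p from 0.534 to 0.917). D3 libraries lay below both UD libraries at 20 to 40 kb, with 0.311 and 0.307 in D3 against 0.337 and 0.429 in UD, and above both at 80 to 160 kb, with 0.156 and 0.137 in D3 against 0.132 and 0.121 in UD. When pairs inside the cluster were left out, a setting added after seeing the data, the changes at 10 to 20, 20 to 40 and 40 to 80 kb were 0.14, 0.23 and 0.24. The lower frequencies at short range in D3 thus came with the pairs inside the cluster.

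To place the changes on the genes, the locus was divided into 8 segments bounded by genes, a division made after values had been seen and reported with no test. D3 lay above UD in 7 (19.4%) and below in 11 (30.6%) of the 36 pairs of segments. Contacts between the segment of Evx2 to Hoxd8 (12 fragments, the 5′ part of the cluster) and that of Hoxd3 to Hoxd1 (11 fragments, the 3′ part) were 0.523 and 0.476 in D3, against 1.00 and 1.51 in UD (log2 change -1.27). Of their 63 fragment pairs, D3 libraries were below both UD libraries in 44 (69.8%) and above in 0, beside 9.15% below and 14.1% above over all pairs at least 10 kb apart. Within the 5′ part, values were 0.985 and 1.35 in D3, against 1.56 and 3.09 in UD (-0.92). Within the 3′ part, they were 0.664 and 0.750 in D3, against 0.761 and 0.915 in UD (-0.24), so that this part changed least of the 3.

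Both parts of the cluster had higher frequencies with Mtx2 in both D3 libraries. Fragments of Hoxd3 to Hoxd1 contacted the gene body of Mtx2 at 0.298 and 0.237 in D3, against 0.147 and 0.123 in UD (log2 change 0.89), with 24 of 60 fragment pairs above UD (40%, beside 14.1% over all pairs) and 3 below (5%, beside 9.15%). Fragments of Evx2 to Hoxd8 contacted it at 0.185 and 0.155 in D3, against 0.110 and 0.117 in UD (0.51). Beyond Mtx2, the 5′ part had 0.198 and 0.173 in D3, against 0.141 and 0.136 in UD (0.37), and the 3′ part had 0.596 and 0.419 in D3 and 0.502 and 0.241 in UD (0.49), with an overlap of libraries. The mean of the 3′ part holds the strong pair of mHoxD_85 with mHoxD_163. Contacts of the 5′ part with the desert between Hoxd1 and Mtx2 were 0.137 and 0.0855 in D3 and 0.126 and 0.126 in UD (-0.18) and overlapped. Those of the 3′ part with this desert were 0.358 and 0.281 in D3 and 0.289 and 0.207 in UD (0.35) and overlapped as well, while contacts inside the desert were 0.212 and 0.226 in D3, against 0.155 and 0.130 in UD (0.56). Contacts of the 3′ part with this desert hold the pair of mHoxD_93 with mHoxD_110, at 4.43 and 0.864 in D3 and 6.24 and 1.26 in UD.

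On the other side, contacts of the cluster with the interval between Lnp and Evx2 were lower in both D3 libraries. This interval met the 5′ part of the cluster at 0.178 and 0.174 in D3, against 0.244 and 0.237 in UD (log2 change -0.41), and the 3′ part at 0.0671 and 0.0467 in D3, against 0.0984 and 0.0984 in UD (-0.63). Fragments beyond Lnp met the 3′ part at 0.105 and 0.0724 in D3, against 0.162 and 0.107 in UD (-0.50). Contacts of the Lnp gene body with either part of the cluster overlapped between groups. Within the 3′ flank itself, the region beyond Mtx2 had 0.247 and 0.192 in D3, against 0.179 and 0.136 in UD (0.43), and D3 was above UD in 101 of its 426 pairs (23.7%, beside 14.1% over all pairs) and below in 24 (5.63%, beside 9.15%).

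**Figure D3:**
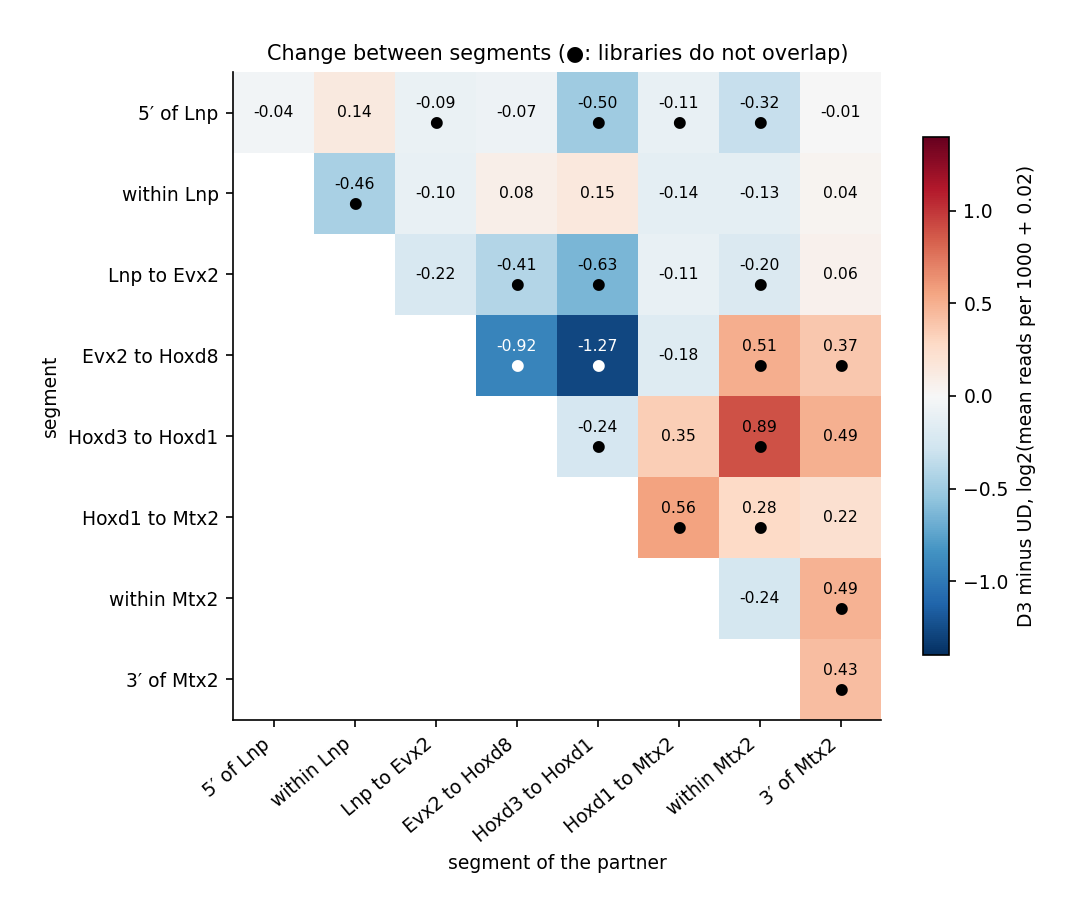
Log2 change in contact frequency (D3 over UD) for the 36 pairs of 8 segments bounded by genes, running 5′ to 3′ on both axes, with the value in each cell and a dot where both D3 libraries lie on 1 side of both UD libraries. The lowest change, -1.27, joins the 5′ and 3′ parts of the cluster, and the highest, 0.89, joins Hoxd3 to Hoxd1 with Mtx2.

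Each fragment was next taken as an anchor. Over all partners at least 10 kb away, 0 anchors were called higher (0%) and 0 lower (0%) by limma at an adjusted p of 0.05, and 13 reached an unadjusted p of 0.05, of which 9 were higher and 4 lower in D3. All 9 lay in the 3′ flank and all 4 in the cluster. D3 libraries were above both UD libraries for 39 anchors (29.3%) and below for 19 (14.3%), and the median change over all anchors was 0.13. The 12 anchors of Evx2 to Hoxd8 all had a negative change, 9 of them with no overlap (median -0.47). Beyond Mtx2, 41 of 44 anchors had a positive change, 23 with no overlap (median 0.38), and within Mtx2 10 of 11 did (median 0.40). On the 5′ flank 15 of 40 were positive, with a median of -0.10. Because values are shares of reads, gains and losses of anchors are tied to each other.

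The 3 anchors with the smallest p on each side, none past the threshold, were read in full. mHoxD_145, 264 kb 3′ of the Hoxd13 start in a stretch with no protein-coding gene, had 0.271 and 0.228 in D3, against 0.148 and 0.0779 in UD (log2 change 1.07, limma adjusted p = 0.196). It was followed by mHoxD_128, in an Mtx2 intron, at 0.89 and mHoxD_151, beyond Mtx2, at 0.82 (limma adjusted p = 0.357 for both). On the lower side, mHoxD_73, in a coding exon of Hoxd12, had 0.122 and 0.160 in D3, against 0.228 and 0.323 in UD (-0.87, limma adjusted p = 0.357). mHoxD_78, in a coding exon of Hoxd9, changed by -0.73 and mHoxD_89, in Hoxd3, by -0.72 (limma adjusted p = 0.375 for both). Without UD library 1, mHoxD_145 was the 1 anchor called, at 1.46 (limma adjusted p = 0.036).

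Among fragments that hold a gene start, those at the 5′ end of the cluster had the most negative changes over all partners. The change was -0.65 for Evx2 (limma adjusted p = 0.419), -0.69 for Hoxd13 (0.375), -0.41 for Hoxd12, -0.59 for Hoxd11, -0.28 for Hoxd8 and -0.35 for Hoxd3. The change was 0.08 for Hoxd4 and -0.00 for Hoxd1, the 2 starts nearest the 3′ end. The Hoxd4 mean holds the pair of mHoxD_85 with mHoxD_163, at 77.0 and 29.4 in D3 and 74.5 and 21.5 in UD. This single pair weighs heavily in it, and the change without the pair is not given here. The D3 and UD libraries overlapped for Hoxd11, Hoxd8, Hoxd4 and Hoxd1. None of the 8 starts was called. The Hoxd3 start used here is that of its annotated span, which begins 5′ of Hoxd4 and reaches past it.

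A mean over all partners hides opposite changes, so partners were divided by region, again with no test. Over all anchors and 3 partner regions, D3 was above UD in 94 (23.6%) and below in 64 (16%) of 399 values. With partners in the cluster, 23 of 23 cluster anchors had a negative change (median -0.99), and D3 was below UD for 21 of them. The other two, mHoxD_75 at the Hoxd11 start and mHoxD_93, overlapped. With partners in the 3′ flank, 19 of the same 23 had a positive change (median 0.40), 10 of them with D3 above UD and 1 with D3 below. All 11 anchors of Hoxd3 to Hoxd1 were positive here, 7 with no overlap, against 8 of 12 for Evx2 to Hoxd8, 3 with no overlap. With partners in the 5′ flank, 1 cluster anchor was above UD and 7 were below.

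Single anchors, chosen by their values, are given for 1 or the other of these changes. mHoxD_67, which holds the start of Evx2, met the rest of the cluster at 1.76 and 1.83 in D3, against 2.79 and 4.84 in UD. mHoxD_84, in an intron of Hoxd3, met the 3′ flank at 0.611 and 0.483 in D3, against 0.296 and 0.221 in UD (log2 change 1.03). mHoxD_80, at the start of Hoxd8, met it at 0.220 and 0.165 in D3, against 0.0724 and 0.108 in UD (0.96). For each of these, D3 and UD libraries did not overlap. Of the 3′ flank anchors, 36 of 70 had higher frequencies with the cluster in both D3 libraries and 2 lower (median change 0.49). Over all 399 values of anchors by partner region, 23.6% were above and 16% below. The higher 3′ flank anchors numbered 2 of 15 between Hoxd1 and Mtx2, under the share over all values, 8 of 11 within Mtx2 (median 0.95) and 26 of 44 beyond it. mHoxD_145 met the cluster at 0.436 and 0.366 in D3, against 0.180 and 0.0789 in UD (1.58). On the 5′ flank, 4 of 40 anchors were above UD with the cluster, also under the share over all values, and 9 below.

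**Figure D4:**
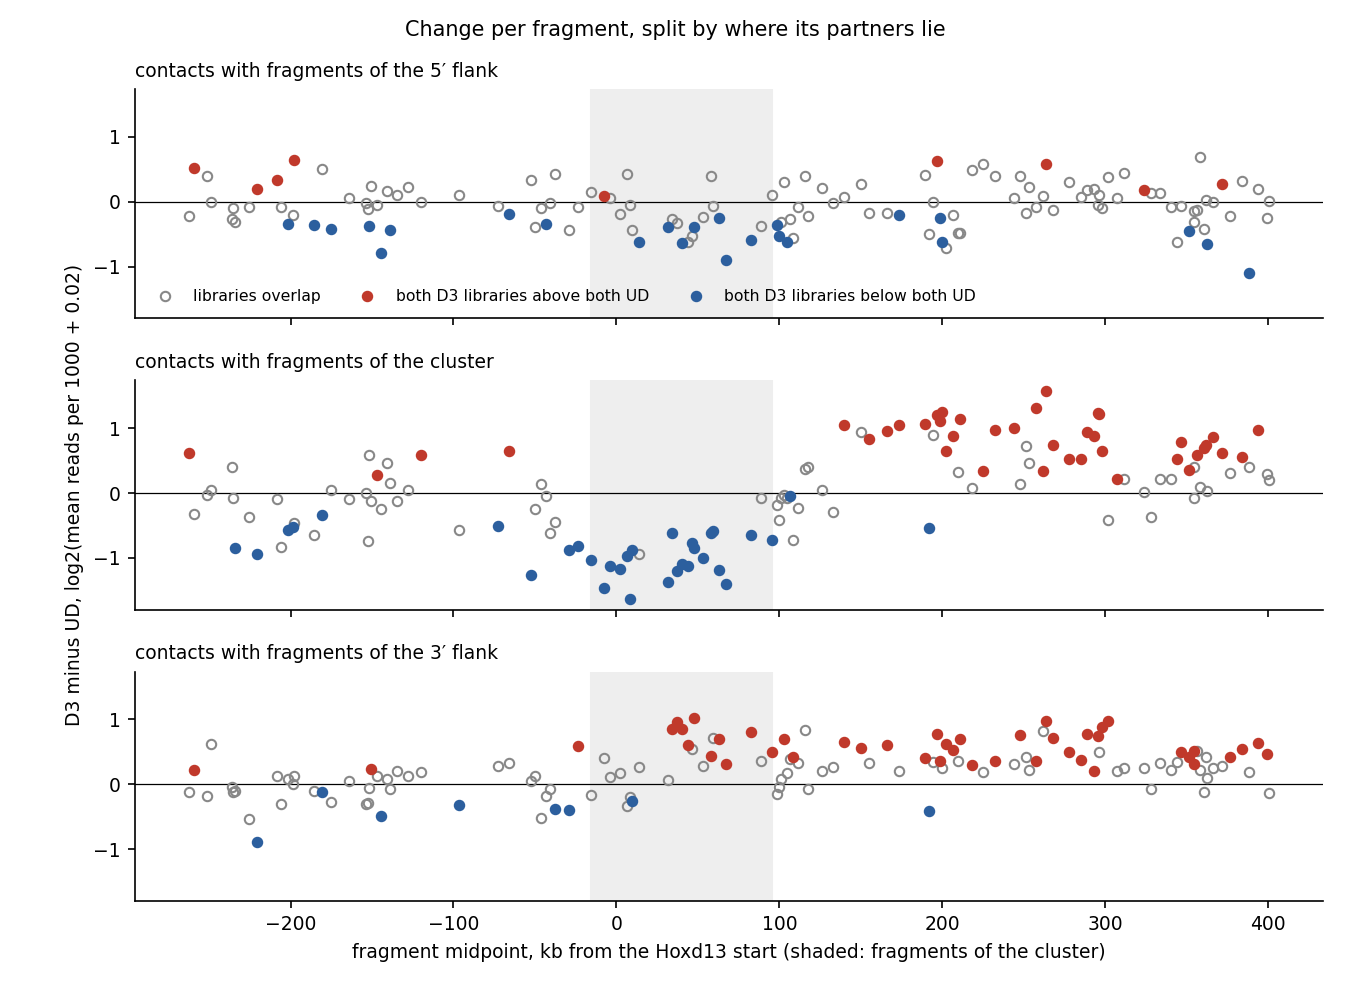
Log2 change in mean contact frequency (D3 over UD) of each fragment with partners in the cluster, the 5′ flank and the 3′ flank, against distance from the Hoxd13 start (kb), coloured where D3 and UD libraries do not overlap. With cluster partners, all 23 cluster fragments are below 0 (median -0.99), while 57 of 70 fragments in the 3′ flank are above 0 (median 0.49).

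The direction of contacts was read for 85 fragments with at least 8 partners on each side at 10 to 200 kb, as the log2 ratio of the mean frequency on the 3′ side to that on the 5′ side. In 3 fragments from Hoxd8 to Hoxd1, this ratio was higher at D3. Their 5′ sides include pairs inside the cluster, so the fall there enters the ratio and it is not a separate change. These 3 fragments were 3.53% of the 85 and the only ones called by limma, with 0 (0%) called lower, and at an unadjusted p of 0.05 10 were higher and 6 lower. D3 was above UD without overlap for 21 (24.7%) and below for 15 (17.6%). The ends of the 3 called fragments are printed above.

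mHoxD_89 (74572993 to 74574606) had a direction of 0.16 and 1.04 in D3, against -1.96 and -1.62 in UD. The difference was 2.40 (SE 0.40, 95% interval 1.54 to 3.25, limma adjusted p = 0.0023). Its 5′ side had 0.310 and 0.154 in D3, against 1.01 and 1.05 in UD, and its 3′ side 0.349 and 0.340 in D3, against 0.243 and 0.329 in UD. Most of the difference lay in the lower frequency on the 5′ side. The call was lost without D3 library 2 (limma adjusted p = 0.110), which had the highest direction, and when only OS25 libraries entered the fit (0.10).

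mHoxD_92 (74585661 to 74591759), nearer Hoxd1, had a direction of 0.17 and 0.03 in D3, against -1.17 and -2.03 in UD (difference 1.69, SE 0.42, limma adjusted p = 0.040). Its 5′ side had 0.553 and 0.582 in D3, against 0.642 and 1.34 in UD, and its 3′ side 0.624 and 0.594 in D3, against 0.275 and 0.314 in UD. Here both sides moved, with the 3′ side gaining in both D3 libraries. mHoxD_81 (74544639 to 74548285), which overlaps Hoxd8, had a direction of 0.96 and 1.06 in D3, against -0.55 and -0.80 in UD (difference 1.69, SE 0.43, limma adjusted p = 0.040). Its 5′ side had 0.177 and 0.155 in D3, against 0.461 and 0.627 in UD, and its 3′ side overlapped, with 0.364 and 0.344 in D3 and 0.309 and 0.351 in UD. The call of mHoxD_81 was lost without any 1 of the 4 libraries, and that of mHoxD_92 without any 1 except UD library 1. Both were lost with OS25 libraries alone (limma adjusted p = 0.10 for both), with a pseudocount of 0.005 (0.063), with their own spread (0.065) and at 10 to 100 kb, where the difference was 0.99 for mHoxD_81 (0.756) and 1.32 for mHoxD_92 (0.159).

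Directions at the gene starts differed in sign along the cluster, and none was called. Differences were -1.25 at Evx2 (limma adjusted p = 0.103), -0.88 at Hoxd13 (0.209), -1.24 at Hoxd12 (0.226) and -0.17 at Hoxd11 (0.947), and 0.64 at Hoxd8 (0.597), 0.90 at Hoxd3 (0.323), 1.55 at Hoxd4 (0.156) and 1.24 at Hoxd1 (0.138). They were thus negative from Evx2 to Hoxd11 and positive from Hoxd8 to Hoxd1. The fragment of Evx2 had a direction of 1.46 and 1.35 in D3, against 2.45 and 2.85 in UD, with 1.02 and 1.04 on its 3′ side in D3, against 1.59 and 2.67 in UD. In all, 11 of 11 fragments of Hoxd3 to Hoxd1 had a positive difference, 9 with D3 above UD, and 8 of 12 of Evx2 to Hoxd8 had a negative one, 6 with D3 below UD. Over all 85 fragments, D3 was above UD in 24.7% and below in 17.6%. A fragment at either end of the cluster has most cluster partners on 1 side, so the fall inside the cluster enters these ratios with opposite sign at the 2 ends. The next falls by p, mHoxD_130 in the 3′ flank at -1.07 and mHoxD_69 at -1.12, were not called (limma adjusted p = 0.177 for both).

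**Figure D5:**
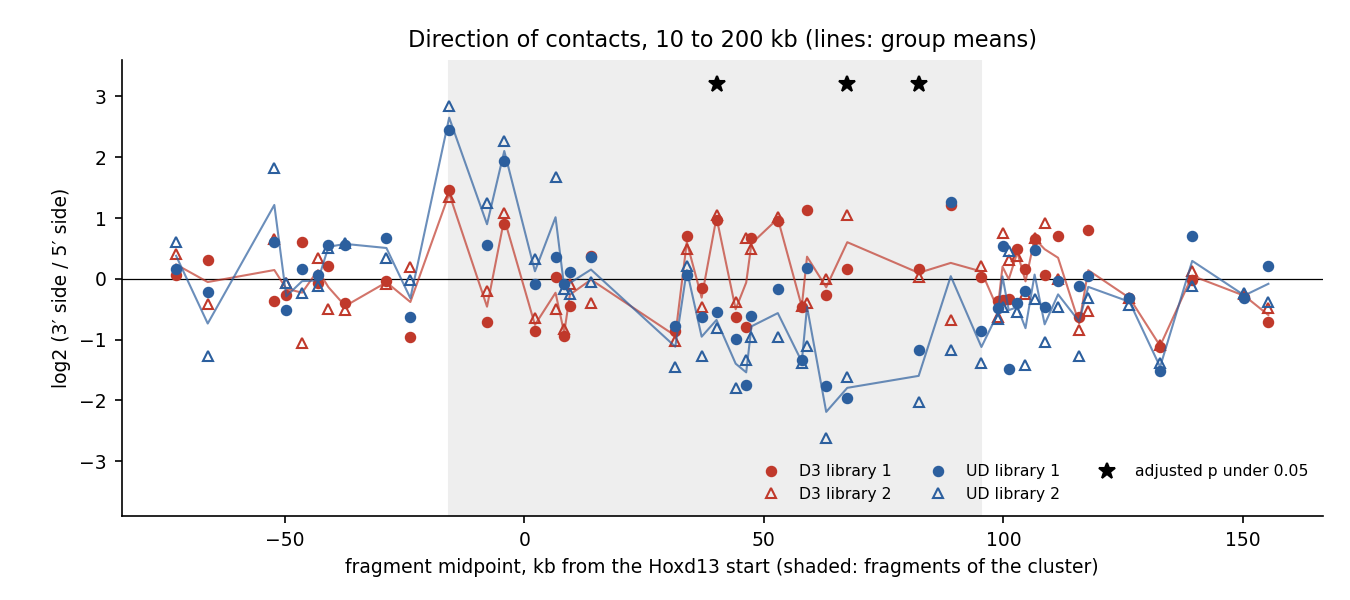
Direction of contacts (log2 of 3′ over 5′ mean frequency at 10 to 200 kb) in each D3 and UD library, against distance from the Hoxd13 start (kb). Of the 85 fragments, only those between Lnp and Mtx2 (-72.7 to 155.3 kb) are drawn. Lines run through the group means, the cluster is shaded and a star marks the 3 called fragments. Fragments of Hoxd3 to Hoxd1 lie higher in D3 on average in 11 of 11 cases, and mHoxD_89 is at 0.16 and 1.04 in D3 against -1.96 and -1.62 in UD.

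Of single pairs, 3484 passed a mean of 0.02 reads per 1000 over the 14 ESC libraries and were tested. Limma called 0 higher (0%) and 0 lower (0%), with a lowest adjusted p of 0.965 and 134 pairs at an unadjusted p of 0.05. Without overlap, D3 was above UD in 582 (16.7%) and below in 381 (10.9%). Inside the cluster, D3 was below in 67 of 104 pairs (64.4%) and above in 2 (1.92%), with a median change of -1.20. For the cluster with the 3′ flank, D3 was above in 211 of 754 (28.0%) and below in 62, and inside the 3′ flank above in 233 of 1054 (22.1%) and below in 67. The 5′ flank had 40 above and 49 below among 320 pairs, and the cluster with the 5′ flank 31 above and 62 below among 394. Pairs between the flanks, with 65 above and 74 below among 858, had shares under those over all pairs in both directions. Pairs that share a fragment are not independent.

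The strongest contacts of the UD cluster were read as a description with no test, since a choice by UD values favours lower values in D3. Of the 10 highest cluster pairs by their UD mean, 10 had a lower mean in D3 and 7 had D3 below UD, beside 90 and 67 of all 105 cluster pairs. The pair mHoxD_67 and mHoxD_70, which joins the starts of Evx2 and Hoxd13, had 5.36 and 5.23 in D3, against 5.71 and 12.7 in UD. The next by UD mean, mHoxD_67 with mHoxD_75 at the Hoxd11 start, had 1.75 and 7.94 in D3 and 3.43 and 13.8 in UD and overlapped, as did mHoxD_69 with mHoxD_75, at 2.44 and 5.11 in D3 and 3.58 and 7.12 in UD. The pair mHoxD_67 and mHoxD_89, from Evx2 to Hoxd3 over 83 kb, had 0.727 and 0.528 in D3, against 3.00 and 4.49 in UD. The pair mHoxD_75 and mHoxD_88, from the start of Hoxd11 to the fragment with a coding exon of Hoxd4, had 1.18 and 1.72 in D3, against 3.72 and 5.97 in UD. In each of the others given, both D3 libraries were lower.

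Pairs with the smallest p, none past the threshold, had reads almost only in 1 group. mHoxD_81 and mHoxD_146, 228 kb apart, had 451 and 247 reads in D3 and 0 in both UD libraries. mHoxD_24 and mHoxD_41 had 219 and 220 reads in D3 and 0 in both UD libraries, and mHoxD_124 and mHoxD_153 had 301 and 128 reads in D3 and 0 in both UD libraries. Lower in D3 were mHoxD_40 and mHoxD_164, with 0 and 1 reads in D3 against 201 and 335 in UD, mHoxD_40 and mHoxD_75, with 0 and 2 in D3 against 93 and 721 in UD, and mHoxD_39 and mHoxD_174, with 0 in both D3 libraries against 177 and 182 in UD. Reads without molecular identifiers are not independent molecules, and empty pairs made up 36.3% to 49.4% of the pairs at least 10 kb apart in each library. A count of 0 allows up to 3 reads, for counting error only.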

How the data were processed

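5C libraries of D3 and UD OS25 cells were analysed (2 each), and the 4 limb libraries, of another primer design, were not used. Per the study's methods, the authors processed Ion Torrent reads with a 5C pipeline on Galaxy, and deposited a signal per contact, its reads over the total of the run times 1000. The sources used here do not name an aligner. Nothing was corrected for primer efficiency, so levels of single pairs are not comparable with each other. Nonzero values were whole multiples of a step, which gave total reads.

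Coordinates are mm9, and genes were placed by the reference annotation of that build. Means include zeros and leave out pairs under 10 kb apart, except in the class under 10 kb. A pseudocount of 0.02 was added before log2. D3 minus UD was tested two-sided (limma 3.58.1, R 4.3.3) in a fit over 14 ESC libraries of 7 groups, at 17.1 (classes), 28.0 (anchors) and 14.6 (direction) degrees of freedom. Besides D3 and UD, the groups were wild-type, Eed-null and Ring1B-null ESCs, and Ring1B-null ESCs given wild-type or mutant Ring1B. The group with mutant Ring1B had no replicate. The spread behind each p-value thus comes in part from lines other than OS25, and the filter on pairs used them too. P-values were adjusted by Benjamini-Hochberg within each family (41 classes, all anchors, 85 directions, 3484 pairs), with calls at 0.05. The fit was also run on simulated pairs and anchors with independent noise. Real readouts share fragments, so this does not measure the error rate in these data. Classes overlap in pairs and are not independent.

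Fragments named are those at gene starts and, per test, up to 8 called in each direction without overlap, or the 3 with the smallest p where fewer than 3 passed. Members, lists and tests were chosen with earlier results of these data known. Segments, partner regions, ratios and the cluster slope were defined after values had been seen, and examples among them were chosen by their values. Replicates were called biological by the study, and the origin of each culture is not given in its labels. Reads ran from 608016 to 909923 per library, and 3 reads correspond to 0.00330 to 0.00493 reads per 1000.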

Additional observations from a re-analysis of the deposited data

How the results depend on the processing

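Alternatives covered the scaling, the pseudocount, the distance minimum, the filter on pairs, the averaging, the libraries in the fit and the assignment of fragments, and leaving out each library in turn. A lone library left in a group was assumed to vary like the other groups. Of 41 classes, 3 were called lower in D3 and 0 higher. The calls numbered 5 with the cluster set by fragment midpoints (4 inside the cluster and 1 of the cluster with the 5′ flank at 40 to 80 kb), 1 with a pseudocount of 0.1, 0 with the spread of each readout alone, 5 with size factors (1 higher and 4 lower) and 0 to 4 without 1 library. Size factors moved the median change of anchors by 0.14 and of pairs by 0.12, and the higher class was the cluster with the 3′ flank at 10 to 20 kb (0.77, limma adjusted p = 0.0494). For the inside of the cluster, the change was -1.01 with a pseudocount of 0.005 (limma adjusted p = 0.067), -0.92 with 0.1 (0.080), -0.99 with its own spread (0.245) and -1.33 to -0.65 without 1 library. The call over the whole cluster was also lost when the distance classes left out pairs inside the cluster. With OS25 libraries alone, where the spread rested on 2 libraries per group, it was kept. Its classes at 20 to 40, 40 to 80 and 80 to 160 kb were then called too. Anchor calls numbered 0 to 1 without 1 library. Direction calls, 3 as reported, numbered 1 at 10 to 100 kb, 5 at 20 to 300 kb, 0 with OS25 libraries alone, 1 with a pseudocount of 0.005, 8 with 0.1 (7 higher and 1 lower), 1 with their own spread and 0 to 2 without 1 library. Pair calls numbered 1 in 20-kb bins, 10 without a filter and 6 with their own spread. The slope difference inside the cluster, -0.37, was -0.39 from 20 kb on, where the D3 cluster slopes lay outside those of the flanks (-0.42 and -0.48 in D3, -0.45 and -0.40 in UD). The causes of these changes were not tested.

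Uncalled changes that turned sign were small. Size factors gave 0.0870 under 10 kb, 0.00163 at 10 to 20 kb, 0.10 inside the 5′ flank and 0.0541 between the flanks. Without pairs inside the cluster, the changes at 10 to 20, 20 to 40 and 40 to 80 kb were 0.14, 0.23 and 0.24, and with means of log2 values 0.0875, 0.0400 and 0.16. Without the strongest 1% of pairs they were 0.0801 at 10 to 20 kb and 0.0104 at 20 to 40 kb. Without 1 library, they ran from -0.31 to 0.15 under 10 kb, -0.34 to 0.0102 at 10 to 20 kb, -0.00022 to 0.51 at 160 to 320 kb, -0.10 to 0.24 over 320 kb, -0.12 to 0.0277 inside the 5′ flank and -0.24 to 0.13 between the flanks.

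With replicate number as a block, added after seeing the data, 1 class was called (inside the cluster at 80 to 160 kb, limma adjusted p = 0.027), that at 40 to 80 kb was lost (0.065), the inside of the cluster had -0.99 (limma adjusted p = 0.065) and 2 directions were called, without mHoxD_81 (0.057). Deviations of libraries of the same number correlated at 0.094 over 3484 pairs, 0.48 over anchors and 0.33 over directions. The labels do not pair the numbers, and 2 pairs do not settle it. A count test on recovered reads was not run, and pairs across the flanks gave too few distance classes for a slope. Empty pairs limit single contacts, of which 36.3% to 49.4% had no read.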
